A study of Saccharomyces cerevisiae with 8 samples.

Results

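Msn2 and Msn4, a pair of related zinc-finger transcription factors of budding yeast, and 8 of the small stress-protein genes that they activate were followed on 8 one-colour Agilent arrays of Saccharomyces cerevisiae. The 10 genes (MSN2, MSN4, HSP12, HSP26, DDR2, DDR48, SPI1, YGP1, GRE1 and SIP18) were chosen by name, and each was found on the array as 1 probe with 2 spots. They are 10 of 6225 genes on the array. The series holds 4 groups of 2 arrays, all of strain CENPK.2-1C grown in YPD, a rich glucose medium, and collected in exponential phase at an OD600 of 1.0. The groups are TFIIB mutant cells with 4 mM H2O2 in the medium, TFIIB mutant cells without H2O2, control cells with 4 mM H2O2, and control cells without H2O2. TFIIB is the general factor that places RNA polymerase II at the start site, and the labels name neither the change in the mutant, called M1, nor how the control form is carried. The labels also do not say how long the cells had grown in H2O2.

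Under stress or glucose shortage Msn2 and Msn4 enter the nucleus and bind short stress response elements upstream of many genes. Protein kinase A, active in cells growing on glucose, keeps Msn2 out of the nucleus. The targets followed here are known as markers of that response. HSP12 encodes a small membrane-associated heat shock protein and HSP26 a small heat shock chaperone. DDR2 and DDR48 were first found as DNA-damage-responsive genes. SPI1 encodes a cell wall protein held by a lipid anchor, and YGP1 a secreted glycoprotein made on nutrient limitation. GRE1 and SIP18 encode hydrophilins, small hydrophilic proteins that accumulate under drying or osmotic stress, and Hsp12 is counted among the hydrophilins as well.

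The 4 control arrays had 94.7% to 97.2% of probes well above background, and the 4 arrays labelled mutant 21.8% to 41.2%. The 75th percentile of the processed signal was 9.87 to 14.5 units on the arrays labelled mutant and 9185 to 15424 units on the control arrays. The E1A spike-in probes, which read RNA added to every sample, averaged 3209 to 4693 units on the arrays labelled mutant and 2621 to 4085 units on the control arrays. SUA7, the gene of TFIIB, read 6.08 to 9.71 units on the arrays labelled mutant and 13788 to 30808 units on the control arrays. Any difference between mutant and control therefore moves with the loss of signal over most of the array, and its part in the results was not tested. The design text calls the arrays of a group biological replicates. The 2 control arrays without H2O2 nevertheless differed little (variance ratio to single duplicate spots 0.721, against 22.4 for the control arrays with H2O2). Each probe value averages 2 spots, which lowers the ratio that spot noise alone would give. The value 0.721 thus does not place the arrays below their spot noise. The ratio was 0.669 for the mutant arrays with H2O2 and 2.26 for those without, over the far fewer probes well above background there. Adjusted p-values are therefore also given with those 2 arrays averaged and counted as 1 sample, and p-values may measure only technical spread. All arrays lie on 1 slide, with H2O2 arrays in one row, those without in the other and the strains in different columns, so slide position and group cannot be told apart.

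**Figure D1:**
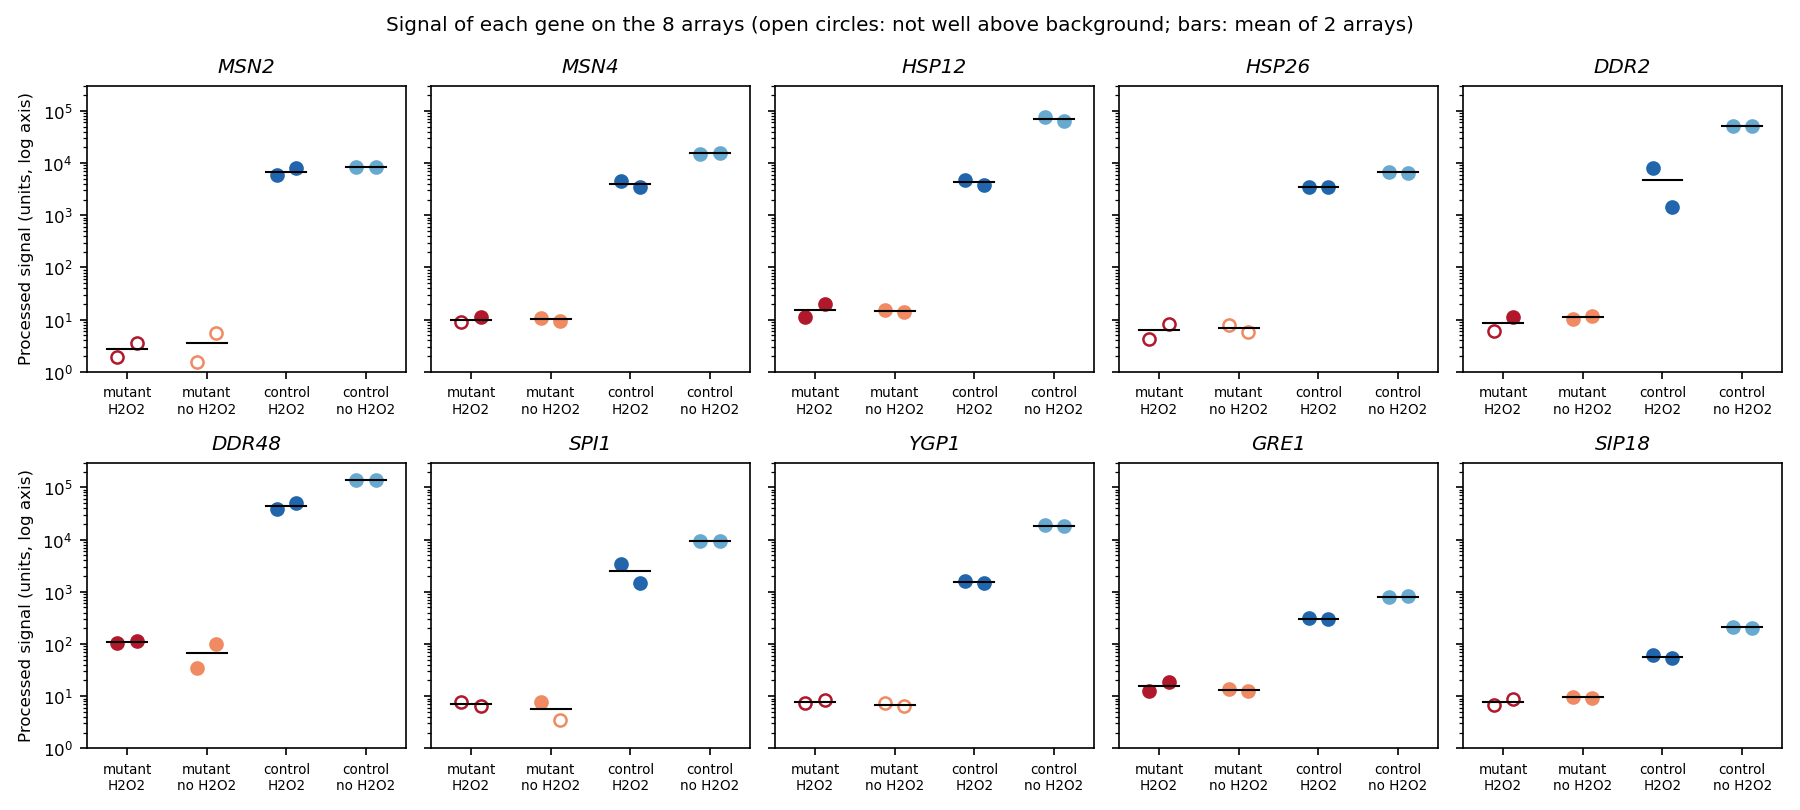
Processed signal in units (log axis) of the 10 genes on the 8 arrays, 1 panel per gene, with groups on the horizontal axis, filled circles for arrays where the probe was well above background, open circles where it was not, and a bar at the mean of 2 arrays. Signals of different probes are not comparable between panels. Within each panel both control groups lie far above both groups labelled mutant. For 9 genes the control arrays with H2O2 lie clearly below those without, and for MSN2 slightly below. Units are not scaled, and the 75th percentile was 9185 and 12898 units on the control arrays with H2O2, against 15424 and 15403 without. After scaling the same 9 genes lay below, as did 41.3% of all genes tested.

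The main comparison asked what growth in H2O2 did to the regulators and their targets in control cells. MSN4 and 5 of the 8 stress-protein genes (HSP12, DDR2, YGP1, GRE1 and SIP18) fell, and none of the 10 genes rose. HSP12 was 11.5-fold lower, DDR2 10.67-fold lower and YGP1 8.44-fold lower with H2O2. MSN2 was not called, and the sign of its change depended on the scale. Of all 6045 genes tested, 14% were called lower and 13.1% higher (limma, two-sided, Benjamini-Hochberg adjusted p under 0.05 over all genes tested). The 10 genes together had a median log2 change of -1.43, and the 8 stress-protein genes -1.47, against 0.03 for all genes. With the 2 control arrays without H2O2 counted as 1 sample, HSP12 and YGP1 were called lower, in a comparison where 1.42% of all genes were. Fold changes and log2 changes here compare signals scaled to the 75th percentile of each array, ± is the standard error of the fit, and RNA from whole cultures cannot tell fewer expressing cells from less RNA per cell.

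Among the regulators, MSN2 read 5843 and 7935 units in control cells with H2O2, against 8343 and 8247 units in control cells without H2O2. Both arrays with H2O2 lay below both without in units. After scaling to the 75th percentile they lay above, with a log2 change of 0.22 ± 0.56 and an adjusted p of 0.799 in limma. That error pools the spread of the 4 groups. The MSN2 probe read 1.51 and 5.50 units on the mutant arrays without H2O2, on neither well above background. In a fit of the control arrays alone the adjusted p was 0.0444 in limma. On the spike-in scale the sign of the log2 change turned, to -0.32. No direction can thus be given for MSN2. MSN4, the partner gene whose own transcript is known to be stress-inducible, read 4467 and 3427 units in control cells with H2O2, against 15153 and 15667 units in control cells without H2O2. The groups did not overlap, in units or after scaling, as was so after scaling for 86.6% of all genes tested. Its log2 change was -1.48 ± 0.28, a 2.78-fold fall, with an adjusted p of 0.0108 in limma and 0.0791 with the control arrays without H2O2 counted as 1 sample. MSN4 ranked 336 and MSN2 3776 among the 6045 genes, counted from the largest fall. The difference between the changes of the 2 genes was not tested.

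The small heat shock genes were far apart in their change. HSP12 read 4716 and 3809 units in control cells with H2O2, against 75253 and 62971 units in control cells without H2O2. Both treated arrays were an order of magnitude below the untreated ones. The log2 change was -3.52 ± 0.28, with an adjusted p of 0.00173 in limma and 0.0276 with the control arrays without H2O2 counted as 1 sample. It was the largest fall of the 10 genes and ranked 31 among all genes tested. HSP26 read 3464 and 3546 units in control cells with H2O2, against 6828 and 6372 units in control cells without H2O2. The scaled log2 change was -0.41 ± 0.23 and did not pass the test (adjusted p 0.236 in limma).

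The DNA-damage-responsive genes differed in how well their arrays with H2O2 agreed. DDR2 read 7990 and 1449 units in control cells with H2O2, against 52384 and 50492 units in control cells without H2O2. Scaled, its 2 arrays with H2O2 were 3.84-fold and 29.7-fold below the mean without H2O2. The mean log2 change of DDR2 was -3.42 ± 0.81, with an adjusted p of 0.0229 in limma and 0.104 with the control arrays without H2O2 counted as 1 sample. Its size thus rests on which of the treated arrays is read: the log2 change was -4.89 without replicate 1 and -1.94 without replicate 2, and it passed the test in both cases. DDR48 read 38251 and 51068 units in control cells with H2O2, against 138441 and 135636 units in control cells without H2O2. The treated arrays were 2.13-fold and 2.25-fold lower after scaling. The log2 change of -1.13 ± 0.48 did not pass the test (adjusted p 0.125 in limma over all arrays), although it did in a fit of the control arrays alone (adjusted p 0.00599). The fit over all arrays pools the spread of the 4 groups, and the 2 mutant arrays without H2O2 gave 34.2 and 98.0 units for DDR48.

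The wall and secreted glycoprotein genes were both lower on the treated arrays. SPI1 read 3420 and 1482 units in control cells with H2O2, against 9525 and 9342 units in control cells without H2O2. Its treated arrays were 1.64-fold and 5.33-fold lower after scaling, and the log2 change of -1.56 ± 0.58 did not pass the test (adjusted p 0.0880 in limma). YGP1 read 1586 and 1481 units in control cells with H2O2, against 18640 and 18006 units in control cells without H2O2. After scaling, its treated arrays were 6.88-fold and 10.4-fold below the mean without H2O2. The log2 change of YGP1 was -3.08 ± 0.23, with an adjusted p of 0.00169 in limma and 0.0294 with the control arrays without H2O2 counted as 1 sample.

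GRE1 and SIP18, the hydrophilin genes apart from HSP12, both fell. GRE1 read 313 and 296 units in control cells with H2O2, against 792 and 829 units in control cells without H2O2. The log2 change was -0.91 ± 0.21, with an adjusted p of 0.0209 in limma and 0.136 with the control arrays without H2O2 counted as 1 sample. SIP18 read 61.8 and 52.7 units in control cells with H2O2, against 215 and 205 units in control cells without H2O2. Its log2 change was -1.38 ± 0.24, with an adjusted p of 0.00907 in limma and 0.0735 with the control arrays without H2O2 counted as 1 sample. The SIP18 probe was dim, and the dimmest readings counted as well above background on the 2 arrays with H2O2 were 22.7 and 30.3 units. The size of its fall thus depended on the background correction, and under normexp, another such correction, its log2 change was -0.79. Without replicate 2 of the control arrays with H2O2, GRE1 had a log2 change of -0.62 and was not called.

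**Figure D2:**
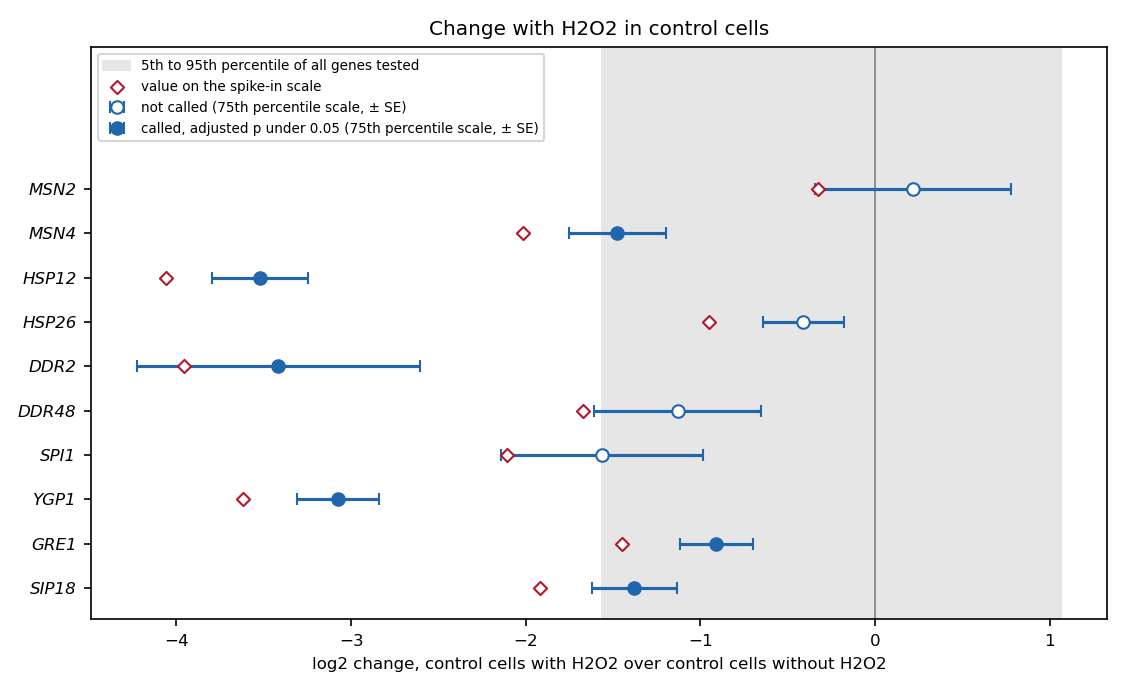
Log2 change of each gene in control cells with H2O2 over control cells without H2O2. Filled circles mark genes called at an adjusted p under 0.05, and open circles genes not called. Bars are the standard error of the fit, which pools the spread of the 4 groups (2 arrays per group). Diamonds give the value on the spike-in scale, and the grey band the 5th to 95th percentile of all 6045 genes tested. HSP12, DDR2 and YGP1 lie far to the left of the band at -3.52, -3.42 and -3.08, and MSN2 is the one gene whose sign differs between the scales.

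The choice of scale moved the counts. Scaled on 7 spike-in probes, the median log2 change of all genes was -0.51, and 15.8% of them were called lower against 0.480% higher. On that scale 8 of the 10 genes were called lower, with DDR48 (log2 change -1.67) and SPI1 (-2.11) added, and HSP26 (-0.95) and MSN2 (-0.32) not called. Under quantile normalization HSP12 (-2.58) and YGP1 (-2.25) were called lower, against 1.22% of all genes, and DDR48 had a log2 change of -1.73. In a fit of the control arrays alone, where 31.5% of genes were called higher and 25.9% lower, MSN2 was called higher (log2 change 0.22, adjusted p 0.0444 in limma) and DDR2 missed the threshold (adjusted p 0.0650). Over the 24 alternatives that gave a value, the log2 changes of the 9 genes other than MSN2 all stayed below 0. The values nearest 0 were -0.18 for HSP26, -0.22 for GRE1 and -0.38 for SIP18 in those alternatives. HSP12 ran between -4.06 and -1.90 and passed the test in 23 of them, as did YGP1 between -3.62 and -1.55. The exception for both was a fit of the control arrays alone with those without H2O2 averaged, chosen after seeing the data, which called 0 of the 6045 genes (0%). In that fit 5 of the 10 genes were lower at an unadjusted p under 0.05.

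**Figure D3:**
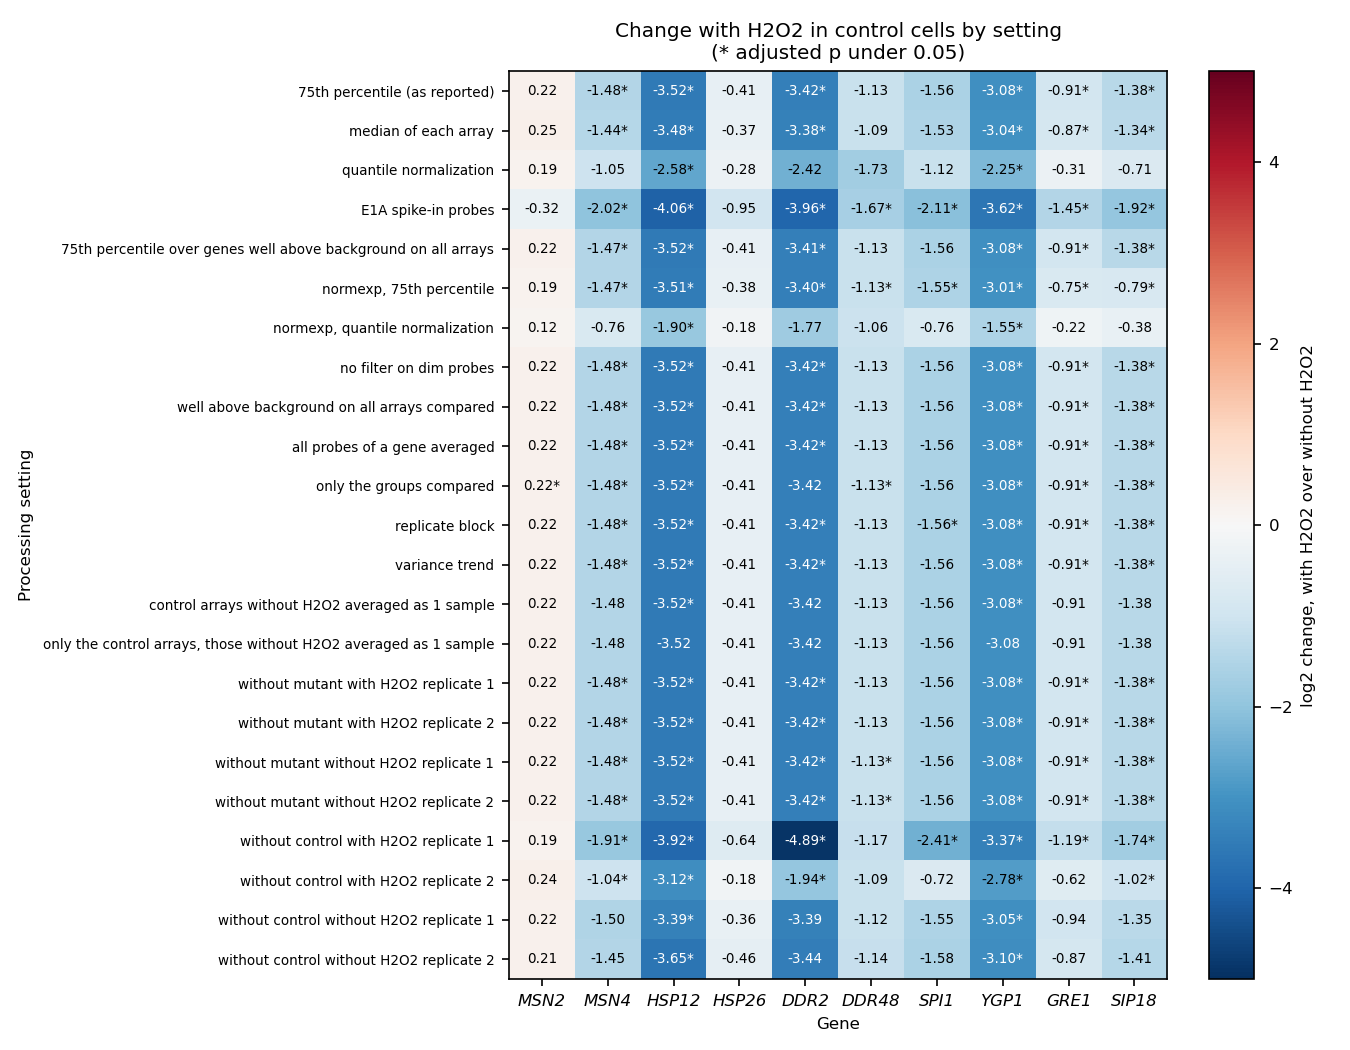
Log2 change of the 10 genes (columns) in control cells with H2O2 over control cells without H2O2 under each processing setting (rows), with blue for lower, red for higher and an asterisk for an adjusted p under 0.05. HSP12 and YGP1 keep a large fall in every row, and MSN2 stays between -0.32 and 0.25.

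The 2 control arrays with H2O2 differed from each other in these genes in one direction. All 10 genes were lower on replicate 2 than on replicate 1 after scaling, MSN2 only slightly, as were 52.9% of all genes tested. The ratio between the 2 arrays was 7.74 for DDR2, more than for 99.8% of genes, and 3.24 for SPI1, more than for 98.6%. It was 1.83 for MSN4, 1.74 for HSP12, 1.65 for SIP18, 1.504 for YGP1, 1.49 for GRE1 and 1.37 for HSP26, but 1.05 for DDR48 and 1.03 for MSN2. Across all genes the median ratio was 1.11 between the arrays with H2O2 and 1.03 between those without. Of 42 further genes known as Msn2/Msn4 targets, 40 (95.2%) were also lower on replicate 2, as were 17 of 18 glucose-repressed genes and 8 of 9 genes high in glucose growth. Whether the 2 cultures differed was not tested. After scaling, 9 of the 10 genes were lower on both treated arrays than on both untreated ones, as were 41.3% of all genes tested.

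Within the set, HSP12 and YGP1 had the most alike patterns among the strongly changed genes over the 4 control arrays. The distance between their scaled log2 signals, each taken as deviations from the gene's own mean, was 0.489, against 1.53 between HSP12 and DDR2 and 3.12 between HSP12 and HSP26. MSN4 lay closest to SIP18 (distance 0.167). MSN2 lay closest to HSP26 (0.693), but farther from it than its median distance to named genes (0.457). Among 5184 named genes, those most like HSP12 were GUT2, MLS1, DCS2, POX1 and POT1, at distances of 0.252 to 0.474 against a median of 3.61. Their log2 changes lay between -3.34 and -3.07. Those most like MSN4 were MTD1, TPK2, GPC1, YPS1 and ARO5, at 0.0887 to 0.106 against a median of 1.66. Those most like MSN2 were YRA2, ASP3-4, RFM1, OSH3 and NET1, at 0.0120 to 0.0221 against a median of 0.457. Such distances follow the size of the change as well as its pattern, describe 4 arrays and have no test.

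The genes are spread over the genome. The authors' deposited table places MSN2 (YMR037C) on chromosome XIII at 344403 to 346517 on the minus strand of release R64-1-1, and MSN4 (YKL062W) on chromosome XI at 323228 to 325120 on the plus strand. It places HSP12 (YFL014W) on chromosome VI at 107256 to 107585 on the plus strand, and YGP1 (YNL160W) on chromosome XIV at 336545 to 337609 on the plus strand. DDR2 (YOL052C-A), on chromosome XV at 231570 to 231755 on the minus strand in the authors' deposited table, is the shortest of the 10 at 186 bases, and MSN2 the longest at 2115 bases. DDR48 (YMR173W) and SIP18 (YMR175W) are near neighbours on the plus strand of chromosome XIII, at 608689 to 609981 and 611016 to 611255 in the authors' deposited table, with 1034 bases between them. Their log2 changes were -1.13 and -1.38 in control cells. HSP26 (YBR072W) lies on chromosome II at 382030 to 382674 and SPI1 (YER150W) on chromosome V at 468370 to 468816, both on the plus strand, and GRE1 (YPL223C) on chromosome XVI at 128632 to 129138 on the minus strand, again in the authors' deposited table. All 10 are protein-coding reading frames, and none overlaps another gene in the RefSeq table.

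Other genes of the same pathway were set beside them, from lists written down by name with earlier results of these data known. The glucose and growth-phase lists below were chosen in the same way. Of 42 further Msn2/Msn4 target genes, 38 were called lower with H2O2 in control cells and 0 higher, beside 14% and 13.1% of all genes, with a median log2 change of -2.31 against 0.03 for all genes. Their examples were GDB1, the glycogen debranching enzyme, with -2.36 ± 0.23 (adjusted p 0.00313 in limma), AMS1, the vacuolar alpha-mannosidase, with -1.49 ± 0.15, TKL2, a transketolase, with -2.29 ± 0.27, and TSL1, a subunit of the trehalose synthesis complex, with -4.09 ± 0.50 (adjusted p 0.00413). With the control arrays without H2O2 counted as 1 sample, 9 of the 42 were called lower, beside 1.42% of all genes, and under quantile normalization 10, beside 1.22%. Of 7 further hydrophilin genes 1 was called lower, a share close to the 14% of all genes: STF2, which is also on the target list, with a log2 change of -2.60 ± 0.71 (adjusted p 0.0349 in limma). The median of the 7 was -0.44, but 0.13 without replicate 2 of the control arrays with H2O2. CPP1 (-0.44 ± 0.17), GON7 (0.41 ± 0.21) and YNL190W (-0.54 ± 0.31) did not pass the test. With the control arrays without H2O2 counted as 1 sample, 0 of the 7 hydrophilin genes were called lower, as was the case without any 1 array labelled mutant or any 1 control array without H2O2.

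Genes that act on Msn2 and Msn4, listed with some transcription factors that work beside them, had a median log2 change of -0.25. Of 33 such genes, 7 were called lower and 1 higher, beside 14% and 13.1% of all genes. TPK2, which encodes a catalytic subunit of protein kinase A and so acts against Msn2, had a log2 change of -1.49 ± 0.39 (adjusted p 0.0299 in limma). YAK1, a kinase that protein kinase A restrains and that favours Msn2 activity, had -2.08 ± 0.47 (adjusted p 0.0195 in limma). GIS1, a zinc-finger activator that works beside Msn2 and Msn4 and is counted among the 7, had -1.78 ± 0.27 (adjusted p 0.00628 in limma). TOR1, a kinase that restrains Msn2, rose, with a log2 change of 1.15 ± 0.32 (adjusted p 0.0388 in limma). With the control arrays without H2O2 counted as 1 sample, 1 of the 33 was called lower and 0 higher, and under quantile normalization 2 lower and 0 higher, beside 1.42% and 1.22% of all genes called lower in those fits.

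Most glucose-repressed genes moved with the stress-protein genes. In the fit over all arrays none of the 9 genes high in glucose growth was called. The part of glucose and growth phase in the result was not tested. Of 18 glucose-repressed genes 17 were called lower with H2O2 in control cells and 0 higher, beside 14% and 13.1% of all genes, with a median log2 change of -2.50. With the control arrays without H2O2 counted as 1 sample 9 of the 18 were called lower, beside 1.42% of all genes, and under quantile normalization 10, beside 1.22%. CAT8, an activator of gluconeogenic genes, had -2.48 ± 0.21, POX1, of fatty acid oxidation, -3.07 ± 0.29, ACS1, an acetyl-CoA synthetase, -2.08 ± 0.21, and IDP2, an isocitrate dehydrogenase, -2.16 ± 0.23 (adjusted p 0.00265 to 0.00364 in limma). HXK1 is on both this list and the target list. Of 9 genes high in glucose growth none was called by limma over all arrays. Their median was 0.41 on this scale but -0.13 on the spike-in scale and -0.24 under quantile normalization. A fit of the control arrays alone called 4 of the 9 higher and 1 lower, beside 31.5% and 25.9% of all genes. In the fit over all arrays 0 of 5 MATa marker genes were called, and their signals ran between 5684 and 40902 units on the 4 control arrays. Of 3 MATalpha marker genes 1 was called, STE3 at a log2 change of -0.85 (named after its value was seen), and their signals ran between 36.0 and 650 units on those arrays.

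**Figure D4:**
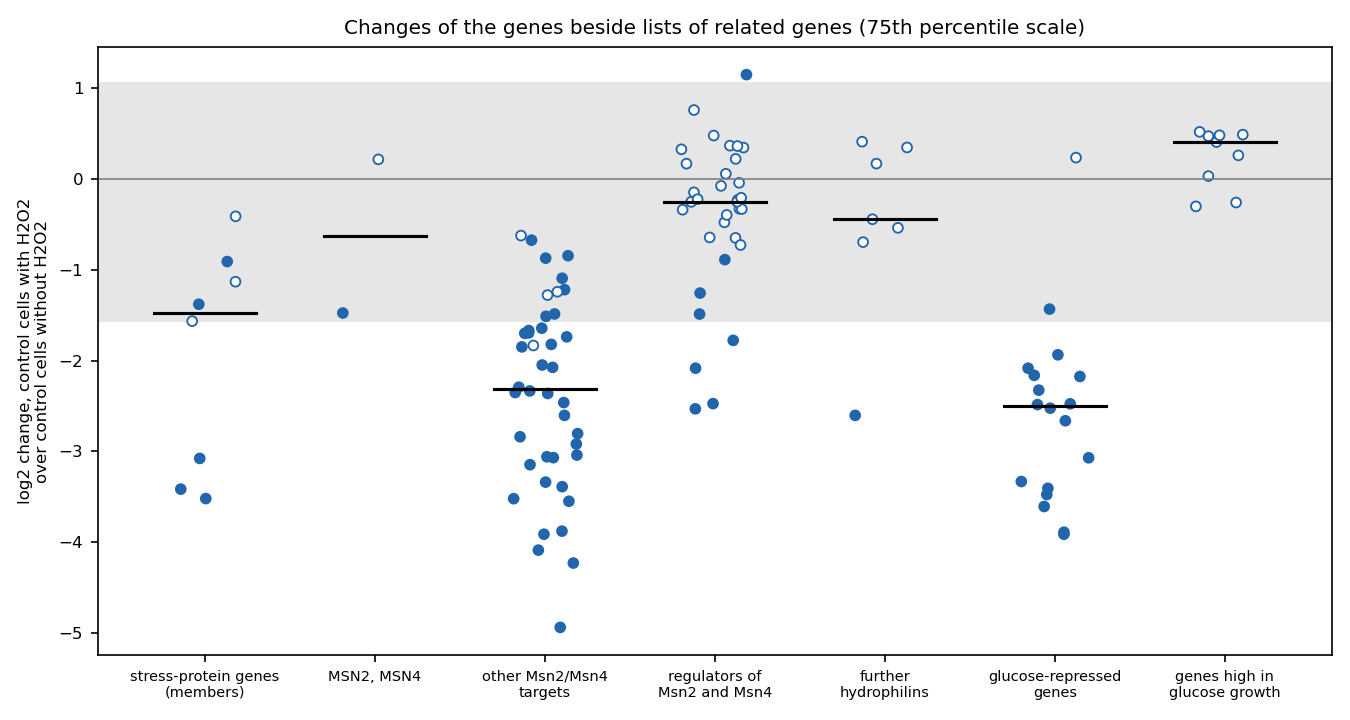
Log2 change in control cells with H2O2 over control cells without H2O2 for the 8 stress-protein genes, for MSN2 and MSN4, and for 5 lists of related genes, with 1 point per gene, filled where called at an adjusted p under 0.05, a bar at the median and a grey band for the 5th to 95th percentile of all genes tested. The median is -1.47 for the 8 stress-protein genes, -2.31 for the other Msn2/Msn4 targets, -2.50 for the glucose-repressed genes and 0.41 for the genes high in glucose growth (-0.13 on the spike-in scale).

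The mutant was compared with the control in each medium. In units, all 10 genes were far lower on the arrays labelled mutant. HSP12 read 11.1 and 19.9 units in mutant cells with H2O2, against 4716 and 3809 units in control cells with H2O2. Without H2O2 it read 15.02 and 13.7 units in mutant cells, against 75253 and 62971 units in control cells. The probes of MSN2, HSP26 and YGP1 stayed near background on all 4 arrays labelled mutant (not well above it on any), and those of SPI1 and SIP18 were not on either with H2O2. On the spike-in scale all 10 genes were called lower in mutant than in control cells in both media, as were 99.4% of all genes with H2O2 and 99.6% without. MSN2 was at least 928-fold lower with H2O2 and at least 1338-fold lower without, and YGP1 at least 209-fold and at least 2908-fold lower. For such probes the bound sets the control mean against a ceiling for each mutant array, which is either the probe's reading or, if higher, the dimmest reading that still counted as well above background there.

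Scaled to the 75th percentile, which is near background on the arrays labelled mutant, the same genes took other signs. With H2O2, 7 of the 10 genes were called higher in mutant than in control cells and 1 lower (MSN2), beside 51.7% and 28.3% of all genes. Of the 7, MSN4 (log2 difference 1.21 ± 0.28), HSP12 (1.67 ± 0.28) and GRE1 (5.52 ± 0.21) were well above background on at least 1 of the 2 mutant arrays (adjusted p 0.00473, 0.000867 and 4.34e-07 in limma). HSP26, SPI1, YGP1 and SIP18 were on neither, so no fold is given for them. Without H2O2, HSP12 (-1.69 ± 0.28) and YGP1 were called lower, beside 28.8% of all genes, and HSP26, GRE1 (4.58 ± 0.21) and SIP18 (6.06 ± 0.24) higher, beside 50.5%. YGP1 was at least 1.61-fold lower on that scale. The 2 scales thus give opposite directions for MSN4, HSP12 and GRE1 with H2O2 and for GRE1 and SIP18 without, and no direction between strains is drawn from them.

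For H2O2 on the arrays labelled mutant, 5 of the 10 genes (MSN4, HSP12, DDR2, DDR48 and GRE1) were well above background on at least 1 array of each group, and for the other 5 no change could be measured. DDR48, whose probe was well above background on all 4 of those arrays, read 106 and 116 units in mutant cells with H2O2, against 34.2 and 98.0 units in mutant cells without H2O2. Its log2 change of 0.73 ± 0.48 was the highest of the 5 and did not pass the test (adjusted p 0.597 in limma). None of the 10 was called by limma, and 0 had an unadjusted p under 0.05, beside 2 calls among 6045 genes (0.0331%). The test of the difference between the strains' H2O2 changes, mutant minus control, called HSP12 (3.36 ± 0.39, adjusted p 0.0195 in limma) and YGP1 (adjusted p 0.0175 in limma) higher, beside 6% of all genes. With the control arrays without H2O2 counted as 1 sample, neither was called (adjusted p 0.122 for both in limma). YGP1 has no measured level on the mutant side, so its call restates the fall in control cells. HSP12 read 11.1 to 19.9 units there, where the dimmest readings counted as well above background were 7.15 to 9.73 units. An HSP12 fall as large as in control cells could thus not have been read on those arrays.

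In the authors' deposited table for cells without H2O2, GRE1 was 14.02-fold up in the mutant (corrected p 0.00456) and SIP18 17.18-fold up (corrected p 0.00857). The same authors' deposited table gave YGP1 as 2.23-fold down (corrected p 0.00525) and HSP12 as 1.81-fold down (corrected p 0.0497). In the authors' deposited table for cells with H2O2, GRE1 was 18.34-fold up, SIP18 16.24-fold up and DDR48 3.26-fold up in the mutant (corrected p 0.00881, 0.0206 and 0.00946). In that authors' deposited table the other 7 genes had corrected p-values of 0.0604 or more. These ratios come from normalized values that the headers place in an experiment named quantile, and GRE1 and SIP18 read 6.71 to 18.8 units on the arrays labelled mutant.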

How the data were processed

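Total RNA of 8 yeast samples was read on 1-colour arrays. Each scanner file holds spot intensity values, background-subtracted by Feature Extraction for the authors, per the file headers. For each medium the authors' deposited table gives the p-value of an unpaired test with its corrected form, an absolute fold change and normalized log2 values for the arrays, per the file headers. Their 8 columns of raw values were not used, and 4 rows emptied in each were not used here. Gene positions come from those tables. Groups and replicate numbers come from the sample titles.

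Log2 processed signals were averaged over the 2 spots of each probe, without control and outlier spots, and expressed relative to the 75th percentile of their array. A gene with several probes took the one with the highest mean signal. The 6045 genes that both arrays of some group read well above background were fitted with limma 3.58.1 in R 4.3.3 in 1 model of 4 groups (4 residual degrees of freedom, 3.10 prior), two-sided, Benjamini-Hochberg adjusted within each of 5 comparisons and called under 0.05. All 10 genes passed that filter. The script was tested on simulated data. Alternatives were other scalings, normexp with an offset of 50 (on the median signal, since no mean signal column is in the files), other filters and thresholds, a variance trend, the deposited log2 values, averaging the control arrays without H2O2, and leaving out each array. The labels do not say that replicate numbers pair the samples, and correlations of same-numbered deviations between groups ran between -0.0725 and 0.211, the highest between the 2 control groups.

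The genes and lists were chosen with earlier results of these data known. Named were the 10 genes, SUA7, up to 4 genes with the smallest p of each list and up to 2 called against its majority, and the 5 genes most like HSP12, MSN2 and MSN4. Of the genes that this rule names, 1 is not reported here.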

Additional observations from a re-analysis of the deposited data

Results flagged for a closer look

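The test of the difference between the strains' H2O2 changes passed its threshold for HSP12 and YGP1, with limits on both. HSP12 had a log2 change of -0.16 ± 0.28 in mutant cells and -3.52 ± 0.28 in control cells, a difference of 3.36 ± 0.39 (adjusted p 0.0195 in limma). For YGP1 the fitted difference was 3.07 (adjusted p 0.0175 in limma), but no level was measured in mutant cells, so it restates the control change of -3.08 ± 0.23 and shows no difference between strains. HSP12 read 11.1 to 19.9 units on the 4 arrays labelled mutant, and the YGP1 probe read 6.34 to 8.26 units there and was on none of them well above background. The dimmest readings counted as well above background on those arrays were 7.15 to 9.73 units. An HSP12 fall as large as in control cells could thus not have been read there, and no difference between strains is drawn for either gene. With the control arrays without H2O2 counted as 1 sample neither passed (adjusted p 0.122 for both in limma). Over the alternatives the adjusted p for HSP12 ran between 0.000525 and 0.131, and for YGP1 between 0.000496 and 0.131, both in limma.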

How the results depend on the processing

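In control cells with H2O2, the count of genes called lower was 6. It was 2 under quantile normalization, 2 under normexp with quantile normalization, 2 with the control arrays without H2O2 averaged, 0 with the control arrays alone and those without H2O2 averaged (5 at an unadjusted p under 0.05; chosen after seeing the data) and 3 at an adjusted p under 0.01, and between 2 and 7 when each array was left out, the lowest being without either control array without H2O2. The count called higher was 0, and 1 in a fit of the groups compared alone. MSN2 turned to -0.32 on the spike-in scale. With the replicate number as a block, 7 genes were called lower in control cells, against 6 without it, and no other count moved by over 1.5 times. The labels give no pairing, and same-numbered deviations of the 2 control groups correlated at 0.211 across genes. Other settings kept each count within 1.5 times.

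For mutant over control without H2O2, genes called lower were 2. They were 6 with the median of each array, 1 under quantile normalization, 10 on the spike-in scale, 5 with the percentile over well-measured genes, 1 with the filter on all arrays compared, 1 with the control arrays averaged, 1 at an adjusted p under 0.01, and between 1 and 4 when each array was left out. Genes called higher were 3, and 0 on the spike-in scale. Log2 differences that changed sign were MSN2 at 0.73 under normexp and between -1.96 and 0.0513 with each array left out, MSN4 between -0.0468 and 0.0034, DDR48 between -1.51 and 0.16, and SPI1 between -0.77 and 0.22 with each array left out and 0.51 under normexp. HSP26 read -0.14 with the median, -0.0940 under quantile normalization, -10.23 on the spike-in scale, -0.0944 with the percentile over well-measured genes, -0.0652 under normexp with quantile normalization and -0.11 in the values of the authors' deposited table. GRE1 turned to -6.24 and SIP18 to -4.76 on the spike-in scale.

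For mutant over control with H2O2, genes called lower were 1. They were 10 on the spike-in scale, 0 with the filter on all arrays compared, 0 at an adjusted p under 0.01 and between 0 and 1 with each array left out. Genes called higher were 7. They were 4 with the median, 0 on the spike-in scale, 4 with the percentile over well-measured genes, 2 with the filter on all arrays compared and 4 in the values of the authors' deposited table. On the spike-in scale the log2 differences turned to -8.93 for MSN4, -8.48 for HSP12, -9.52 for HSP26, -9.01 for DDR2, -8.96 for DDR48, -8.63 for SPI1, -7.93 for YGP1, -4.63 for GRE1 and -3.22 for SIP18. Under normexp MSN2 turned to 0.46 and DDR48 to -0.76. HSP26 read -0.13 with the median, -0.32 under quantile normalization, -0.0205 with the percentile over well-measured genes, -0.20 under normexp with quantile normalization and -0.34 in the values of the authors' deposited table. DDR2 ran between -0.34 and 2.61 with each array left out, the lowest without replicate 2 of the control arrays with H2O2.

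For H2O2 on the arrays labelled mutant, 0 genes were called each way, and between 0 and 1 each way with each array left out. For the difference of the H2O2 changes, genes called higher were 2. They were 0 under quantile normalization, 5 on the spike-in scale, 6 under normexp, 1 under normexp with quantile normalization, 1 with the filter on all arrays compared, 0 with the control arrays averaged, 0 at an adjusted p under 0.01, 4 at an adjusted p under 0.1, and between 0 and 7 with each array left out (0 without either control array without H2O2, 7 without replicate 1 of those with H2O2). Genes called lower were 0, and between 0 and 1 with each array left out. Fitted values of probes not well above background on the arrays labelled mutant carry no measured level there, and 2 arrays per group limit every value. The cause of these moves was not tested.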
